A study of Mus musculus with 20 samples.

Results

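Translation initiation factor genes were described here in the gastrocnemius, a calf muscle of mostly fast fibres, of 2 mouse models. They were taken as every gene whose symbol begins with Eif and a digit, except Eif4ebp1, among probe sets that carry 1 gene symbol. Where a gene had several such probe sets, the brightest over the 20 arrays stood for it. This left 48 genes of the 19938 tested, of which 41 had 1 single-symbol probe set and 7 had more. The name covers more than initiation factors in the strict sense, since 4 of the 48 genes encode kinases that act on eIF2 and 2 encode proteins that bind eIF4E. Eif3j1, Eif3j2 and Eif4ebp3 were found only on probe sets that name several genes and are not among the 48. None of the 67 probe sets that name such a gene carried the symbols Eif1, Eif2s1, Eif3g or Eif4g1. These genes were therefore not measured, and the roles below are covered only in part.

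Expression was measured on Affymetrix mouse gene arrays, 1 array per sample, in adult male C57BL/6 mice. The 5 NCoR1-MKO samples came from mice with a muscle-specific knockout of the nuclear receptor corepressor NCoR1, and their controls were 5 CON samples. The 5 PGC-1alpha-mTg samples came from mice with a muscle-specific PGC-1alpha transgene, a transcriptional coactivator of mitochondrial genes, and their controls were 5 WT samples. The CON genotype, and the promoters that drive the transgene and the deletion, are not given in the sources used here. Nothing in the labels says that the arrays of a group came from separate mice, so the p-values cover the spread among these samples alone, part of which may be technical.

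In eukaryotes, eIF2 carries the initiator tRNA as a ternary complex with GTP to the small ribosomal subunit, which eIF3 and the small factors eIF1 and eIF1A prepare for loading. The messenger RNA is brought in through its cap, which eIF4E binds, through the eIF4G scaffolds and through the helicase eIF4A with its cofactors eIF4B and eIF4H. After scanning to the start codon, eIF5 and eIF5B complete GTP hydrolysis and subunit joining, and eIF2B reloads eIF2 with GTP. Both the cap-binding step and the eIF2B step are regulated, the first by 4E-binding proteins under mTOR and the second by kinases that phosphorylate eIF2alpha. In skeletal muscle these steps are best known for setting protein synthesis after feeding and loading.

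The values were RMA values on the log2 scale, and all changes below are log2 differences ± SE from limma with n = 5 arrays per group. "Rose" and "fell" are kept for an adjusted p under 0.05 after Benjamini-Hochberg adjustment over all 19938 genes. Array medians were 6.03 to 6.08 for NCoR1-MKO and CON and 5.84 to 5.91 for PGC-1alpha-mTg and WT, and array quantiles differed more between these cohorts (0.168 to 0.228) than within them (at most 0.0627). Each model was therefore read only against its own controls, and levels are not compared between cohorts or between genes. The transgene was visible in Ppargc1a, which averaged 11.42 in PGC-1alpha-mTg and 9.59 in WT, an increase of 1.83 ± 0.07 (limma adjusted p = 9.88e-15). Ncor1 is not analysed here, and the knockout label has no such check. The PGC-1alpha-mTg arrays did not vary alike: over all genes, the deviations of arrays 2 and 3 from the group mean correlated at 0.443, and those of array 5 at -0.674 and -0.706 with arrays 2 and 3. Counts for this group are therefore also given without arrays 2 and 3, an alternative chosen after the data were seen. The fibre genes Ckm and Acta1 averaged 13.29 and 13.38 in PGC-1alpha-mTg, against 13.37 and 13.45 in WT, so both markers of the labelled tissue were high in both groups.

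In PGC-1alpha-mTg muscle, 22 of the 48 initiation factor genes fell, 5 rose and 21 did not pass the test. Among all genes tested, 16.1% fell and 11.9% rose. After median centring of the arrays, 23 of the 48 fell and 2 rose, where 17.4% of all genes fell and 9.93% rose. The median change of the 48 was -0.12, against 0.02 over all genes, and 38 of the 48 changes were negative. The falls reached 1.36-fold, in Eif4ebp2 and Eif4b, and took in 9 of the 11 eIF3 subunits among the 48 genes. The rises were Eif2b4, Eif2d, Eif2ak2, Eif1ad and Eif4e2, of which Eif2b4 was the largest at 1.15-fold. On 13 of the 48 genes all PGC-1alpha-mTg arrays lay below all WT arrays, and on 4 genes above them, against 11.2% and 8.72% of all genes. In whole muscle, fewer cells of a type and less RNA per cell cannot be told apart.

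With the dimmest 40% of genes left out, 11963 genes were tested, of which 27.7% fell and 17.9% rose in PGC-1alpha-mTg, with a median of -0.03. This set held 47 of the 48 initiation factor genes, with 22 falls, 5 rises and a median of -0.12. Without PGC-1alpha-mTg arrays 2 and 3, 11 members fell and 5 rose, against 10.9% and 10.6% of all genes, and the median of the members was -0.08. Without PGC-1alpha-mTg array 5, 23 members fell and 3 rose, against 18.3% and 14.5% of all genes, with a median of -0.13. With every array and gene kept, 11.9% of all genes rose and 16.1% fell, and the marker counts that follow stand beside these shares. Endothelial markers moved with the group as well: 4 of 7 rose and 0 fell. Their mean level on an array, relative to the WT mean, was 0.22 to 0.39 in PGC-1alpha-mTg and -0.10 to 0.16 in WT. Of 6 fibroblast markers 2 fell, with array means of -0.32 to -0.12 in PGC-1alpha-mTg and -0.17 to 0.13 in WT, and of 6 smooth muscle markers 1 rose (Rgs5). Of 10 skeletal muscle fibre markers 4 fell and 1 rose, among them Actn3 with -0.28 ± 0.04 and Myh1 with 0.32 ± 0.05. By sign, 9 of the 10 changes were negative, with a median of -0.07. On 7 of the 10 markers all PGC-1alpha-mTg arrays lay below all WT arrays and on 1 above them, against 11.2% and 8.72% of all genes. The array means of the fibre markers were -0.08 to -0.04 in PGC-1alpha-mTg and -0.02 to 0.02 in WT. The part of these cell types in the initiation factor changes was not tested.

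**Figure D1:**
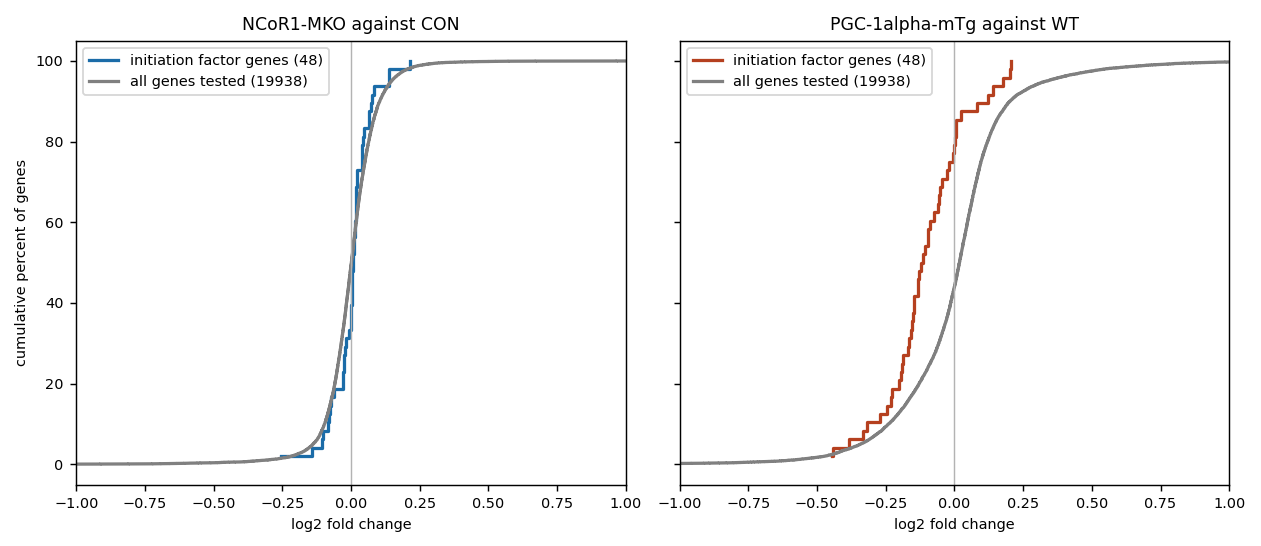
Distribution of log2 fold changes in PGC-1alpha-mTg against WT and in NCoR1-MKO against CON, for the initiation factor genes and for all genes tested. The initiation factor genes lie to the left of all genes in PGC-1alpha-mTg (medians -0.12 and 0.02), and close to 0 in NCoR1-MKO (median 0.01).

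The largest fall was in a gene that acts on the cap-binding step. Eif4ebp2 encodes 4E-BP2, which binds eIF4E and blocks its contact with eIF4G until mTOR phosphorylates it. It read 9.86, 9.84, 9.84, 9.88 and 9.71 on the 5 PGC-1alpha-mTg arrays, against 10.23, 10.32, 10.29, 10.30 and 10.20 on the WT arrays. All transgenic arrays were lower, and the change was -0.45 ± 0.05 (limma adjusted p = 3.95e-07). Eif4enif1, which encodes 4E-T, another eIF4E-binding protein that carries eIF4E into the nucleus, fell by 0.17 on the log2 scale with overlapping arrays (limma adjusted p = 0.0237). Its change was -0.07 without PGC-1alpha-mTg arrays 2 and 3 (limma adjusted p = 0.357).

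Eif4b encodes the cofactor that stimulates the helicase eIF4A. Its values were 10.43, 10.17, 10.08, 10.34 and 10.38 in PGC-1alpha-mTg, against 10.63, 10.75, 10.82, 10.71 and 10.72 in WT, so the groups did not overlap, and arrays 2 and 3 were the lowest. The change was -0.44 ± 0.06 (limma adjusted p = 5.14e-06), and -0.34 without arrays 2 and 3 (limma adjusted p = 9.02e-05). The helicase genes themselves gave values near 0: Eif4a1 changed by 0.01 ± 0.05 and Eif4a2 by -0.00 ± 0.05, neither past the test, and the other 2 probe sets of Eif4a1 gave 0.01 and 0.02. The 95% interval of the Eif4a1 change was -0.10 to 0.11. Eif4h, the cofactor related to eIF4B, had a change of -0.09 ± 0.05 (limma adjusted p = 0.225). Eif4a3 encodes a helicase of the exon junction complex rather than of initiation, and its probe set gave -0.15 ± 0.09 (limma adjusted p = 0.234).

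The 4 largest falls were in Eif4ebp2, Eif4b, Eif3e and Eif2b2. The promoters of 3 of these genes, from RefSeq, are printed to show the sequence from which the transcripts with the largest falls start. Each run is 280 bases of assembly GRCm38.p6 in the direction of the gene, 250 before and 30 after the start, with any ETS motif (CCGGAAG on either strand) in capitals. ETS factors such as GABPA bind this motif and are known for activating housekeeping and mitochondrial genes.
Eif4ebp2, chr10:61452640-61452919, minus strand: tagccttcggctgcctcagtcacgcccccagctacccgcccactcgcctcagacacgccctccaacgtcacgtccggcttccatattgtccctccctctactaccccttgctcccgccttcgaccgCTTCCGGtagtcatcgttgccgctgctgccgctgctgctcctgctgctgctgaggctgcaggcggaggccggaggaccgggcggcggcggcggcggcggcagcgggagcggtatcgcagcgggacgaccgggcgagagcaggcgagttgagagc
Eif4b, chr15:102073523-102073802, plus strand: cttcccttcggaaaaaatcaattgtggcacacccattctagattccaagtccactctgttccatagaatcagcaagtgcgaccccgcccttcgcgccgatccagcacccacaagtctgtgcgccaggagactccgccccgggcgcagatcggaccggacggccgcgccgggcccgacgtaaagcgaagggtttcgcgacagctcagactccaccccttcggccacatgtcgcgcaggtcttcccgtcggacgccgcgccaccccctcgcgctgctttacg
Eif2b2, chr12:85219231-85219510, plus strand: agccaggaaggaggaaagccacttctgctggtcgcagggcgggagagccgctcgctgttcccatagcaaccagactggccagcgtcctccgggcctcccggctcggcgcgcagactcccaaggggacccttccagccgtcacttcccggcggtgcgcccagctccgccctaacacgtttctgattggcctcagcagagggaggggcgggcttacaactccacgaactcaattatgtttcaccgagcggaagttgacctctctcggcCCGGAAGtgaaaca
The window of Eif4ebp2 holds 1 ETS motif that begins 124 bases before the start, that of Eif2b2 holds 1 at base 17 after the start, and that of Eif4b holds 0. Their GC contents were 70% in Eif4ebp2 and 63.6% in both Eif4b and Eif2b2.

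The measured cap-binding proteins and scaffolds, without Eif4g1, changed less, and not all one way. Eif4e, the cap-binding protein itself, read 8.96, 8.95, 8.96, 9.03 and 9.0035 in PGC-1alpha-mTg, against 9.12, 9.05, 8.9988, 9.09 and 9.03 in WT, a change of -0.08 ± 0.06 that did not pass the test (limma adjusted p = 0.346). Eif4e2 encodes 4EHP, a cap-binding relative that does not bind eIF4G and acts in repression. It read 8.89, 8.92, 8.95, 8.97 and 9.07 in PGC-1alpha-mTg, against 8.84, 8.88, 8.80, 8.81 and 8.86 in WT. All transgenic arrays were higher, by 0.12 ± 0.04 on average (limma adjusted p = 0.0289), but the adjusted p reached 0.0745 when single arrays were left out (WT 1, 3 or 4, or PGC-1alpha-mTg 4 or 5). The scaffold Eif4g3 fell by 0.16 on the log2 scale, and Eif4g2, which encodes the scaffold DAP5 that lacks the eIF4E site, fell by 0.13 (limma adjusted p = 0.0165 and 0.0067). Eif4g3 was not called without arrays 2 and 3 (-0.10, limma adjusted p = 0.198), whereas Eif4g2 was (-0.14, limma adjusted p = 0.0235). Eif4e3 and Eif4e1b gave 0.08 and -0.19 and did not pass the test.

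**Figure D2:**
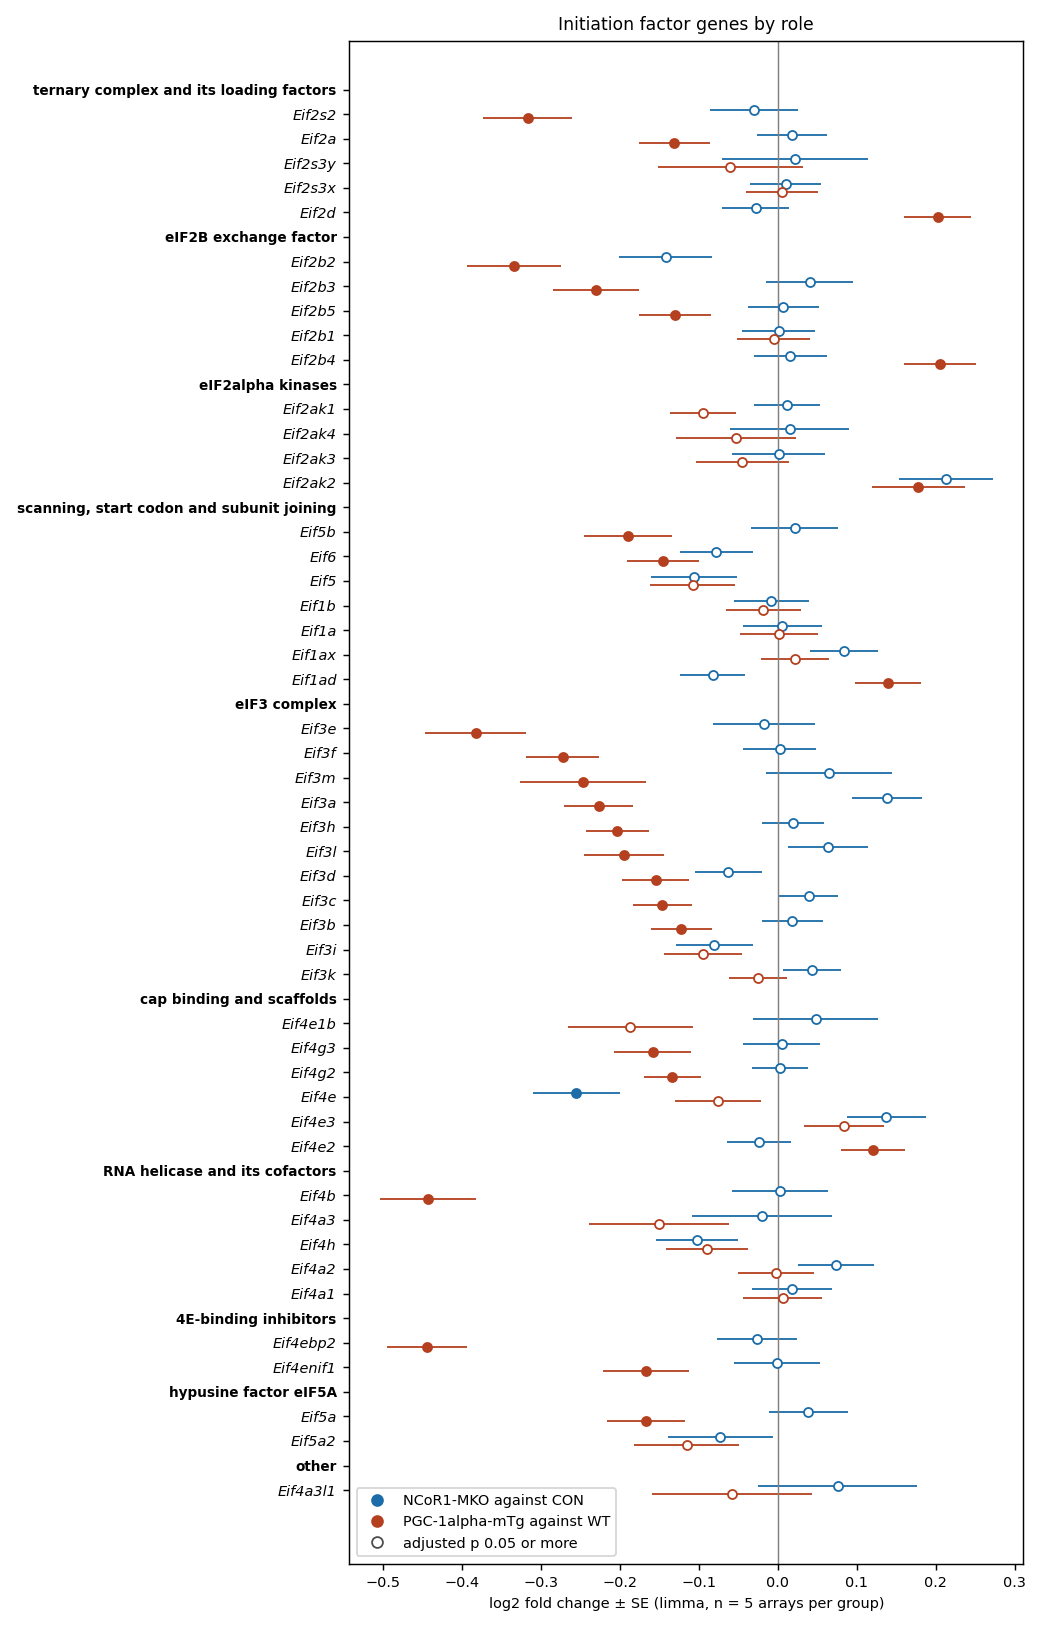
Log2 fold change ± SE of each of the 48 initiation factor genes, grouped by role, in PGC-1alpha-mTg against WT and NCoR1-MKO against CON (limma, n = 5 arrays per group, filled points with an adjusted p under 0.05). The eIF3 subunits lie between -0.38 and -0.03 in PGC-1alpha-mTg and between -0.08 and 0.14 in NCoR1-MKO.

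Most of the measured subunits of eIF3, the scaffold that holds the small subunit open for loading, were lower. Of the 11 subunits among the 48 genes 9 fell and 0 rose, where 16.1% of all genes fell and 11.9% rose. All 11 changes were negative (-0.38 to -0.03, median -0.20). On 6 all PGC-1alpha-mTg arrays lay below all WT arrays, against 11.2% of all genes. Eif3j1 and Eif3j2, outside the 11, are read only by probe sets that name both, which gave 0.08 ± 0.05 and 0.07 ± 0.05 and did not pass the test. Eif3e read 9.16, 8.88, 8.88, 9.01 and 9.02 in PGC-1alpha-mTg, against 9.33, 9.43, 9.36, 9.36 and 9.37 in WT. Every transgenic array was below every WT array, with a change of -0.38 ± 0.06 (limma adjusted p = 6.78e-05). Eif3f read 10.69, 10.66, 10.69, 10.66 and 10.74 in PGC-1alpha-mTg, against 10.92, 10.97, 11.00, 11.00 and 10.93 in WT, again without overlap, with -0.27 ± 0.05 (limma adjusted p = 7.26e-05). The product of Eif3f is known in muscle as a partner of mTOR complex 1 and a target of the atrophy ubiquitin ligase MAFbx.

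The other subunits gave smaller values. Eif3a, the largest subunit, fell by 0.23, Eif3h by 0.20, Eif3l by 0.20 and Eif3c by 0.15 on the log2 scale, in each case with no overlap between the groups. Eif3m, Eif3d and Eif3b fell by 0.25, 0.16 and 0.12, with overlapping arrays. Eif3i (-0.09 ± 0.05) and Eif3k (-0.03 ± 0.04) did not pass the test. Eif3m has 2 single-symbol probe sets that disagree: the one used gave -0.25 ± 0.08 and the other -0.00 ± 0.05, and the mean of the 2 did not pass the test. The mean of the 11 subunits, relative to the WT mean, was -0.16, -0.27, -0.25, -0.15 and -0.11 on PGC-1alpha-mTg arrays 1 to 5, against -0.03 to 0.04 on the WT arrays. Arrays 2 and 3 were the lowest and array 5 the nearest to WT, yet all 5 lay below every WT array. Without arrays 2 and 3, 4 subunits fell: Eif3a, Eif3e, Eif3f and Eif3h.

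**Figure D3:**
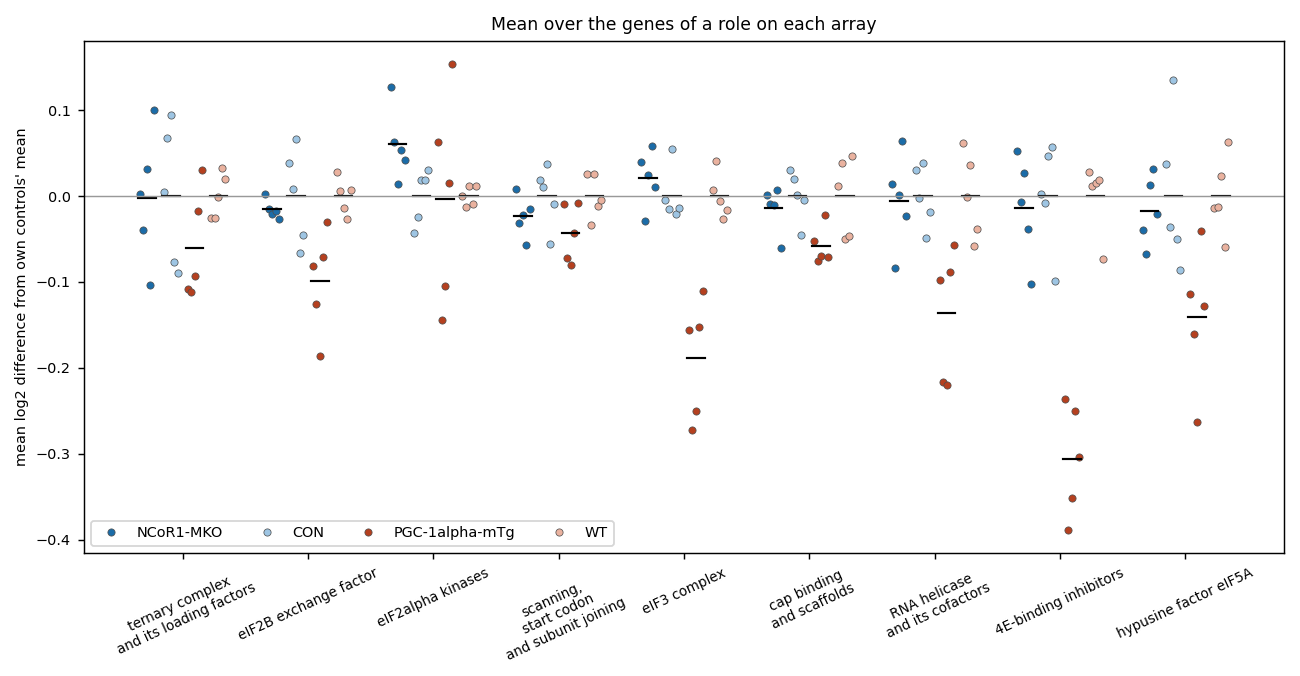
Mean over the genes of each role on each array, as the log2 difference from the mean of the array's own controls. For eIF3 the 5 PGC-1alpha-mTg arrays lie between -0.27 and -0.11, and the WT arrays between -0.03 and 0.04.

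Among the 5 measured genes of factors that load the initiator tRNA, 2 fell and 1 rose, where 16.1% of all genes fell and 11.9% rose. Eif2s1 was not measured. Eif2s2 encodes eIF2beta, the subunit of eIF2 that contacts eIF5 and eIF2B. It read 9.19, 9.26, 9.19, 9.31 and 9.39 in PGC-1alpha-mTg, against 9.54, 9.50, 9.54, 9.67 and 9.68 in WT, with no overlap and a change of -0.32 ± 0.06 (limma adjusted p = 1.3e-04). Eif2s3x and Eif2s3y, the X- and Y-linked genes of eIF2gamma, gave 0.01 ± 0.05 and -0.06 ± 0.09 and did not pass the test. They are near-identical copies, so a probe set of one may also read the other. Eif2a, an eIF2-independent tRNA carrier that is not a subunit of eIF2, fell by 0.13 on the log2 scale (limma adjusted p = 0.0308), with -0.08 without arrays 2 and 3 (limma adjusted p = 0.226).

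Eif2d, also known as ligatin, delivers tRNA without GTP and takes part in recycling of ribosomes. It went the other way, with 8.06, 8.19, 8.22, 8.22 and 8.19 in PGC-1alpha-mTg, against 7.90, 7.99, 7.99, 8.02 and 7.98 in WT. All transgenic arrays were higher, array 1 only slightly, with a change of 0.20 ± 0.04 (limma adjusted p = 7.65e-04).

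The 5 subunits of eIF2B, the guanine nucleotide exchange factor that reloads eIF2, did not move together. Of these 3 fell, 1 rose and 1 did not pass the test, where 16.1% of all genes fell and 11.9% rose. Eif2b2, a regulatory subunit, read 8.33, 8.43, 8.20, 8.48 and 8.46 in PGC-1alpha-mTg, against 8.69, 8.72, 8.69, 8.74 and 8.73 in WT, a change of -0.33 ± 0.06 with no overlap (limma adjusted p = 1.25e-04). Eif2b3 and the catalytic subunit Eif2b5 fell by 0.23 and 0.13 on the log2 scale (limma adjusted p = 0.00238 and 0.0351). Eif2b5 had -0.08 without arrays 2 and 3 (limma adjusted p = 0.302). Eif2b4, the other main regulatory subunit, read 8.61, 8.56, 8.54, 8.53 and 8.70 in PGC-1alpha-mTg, against 8.44, 8.32, 8.42, 8.26 and 8.47 in WT. It was higher on every transgenic array, by 0.21 ± 0.05 (limma adjusted p = 0.00139). Eif2b1, a subunit that takes part in sensing phosphorylated eIF2, gave -0.01 ± 0.05, with a 95% interval of -0.10 to 0.09.

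Of the 4 kinases that phosphorylate eIF2alpha, Eif2ak2 rose and the others did not pass the test, where 11.9% of all genes rose. Eif2ak2 encodes PKR, the interferon-induced kinase activated by double-stranded RNA. It read 5.81, 5.74, 5.77, 5.95 and 6.02 in PGC-1alpha-mTg, against 5.64, 5.55, 5.67, 5.76 and 5.78 in WT. The groups overlapped, and the change was 0.18 ± 0.06 (limma adjusted p = 0.0271). Leaving out WT 1, 2 or 3 or PGC-1alpha-mTg 4 or 5 took the adjusted p to at most 0.0868. The heme-regulated kinase Eif2ak1, the endoplasmic reticulum kinase Eif2ak3 (PERK) and the amino acid sensor Eif2ak4 (GCN2) gave -0.09, -0.05 and -0.05.

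Among 7 genes of scanning, start codon choice and subunit joining, 2 fell and 1 rose, where 16.1% of all genes fell and 11.9% rose. Eif1ad, an eIF1A-like protein of the nucleus, read 8.95, 8.98, 8.91, 9.02 and 8.96 in PGC-1alpha-mTg, against 8.89, 8.81, 8.82, 8.82 and 8.78 in WT. All transgenic arrays were higher, narrowly, with 0.14 ± 0.04 (limma adjusted p = 0.0135), and 0.12 with arrays centred on their medians (limma adjusted p = 0.0618). Eif5b, the GTPase of subunit joining, and Eif6, which keeps the large subunit from joining early, fell by 0.19 and 0.15 on the log2 scale. Without arrays 2 and 3 their changes were -0.10 and -0.11 (limma adjusted p = 0.224 and 0.151). Eif1a, Eif1ax, Eif1b and Eif5 lay between -0.11 and 0.02 and did not pass the test.

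Eif5a, which carries the amino acid hypusine and helps the ribosome through stalling sequences, read 10.83, 10.85, 10.88, 10.89 and 10.84 in PGC-1alpha-mTg, against 11.07, 11.00, 11.03, 10.97 and 11.06 in WT. No arrays overlapped, and the change was -0.17 ± 0.05 (limma adjusted p = 0.0131). Its other single-symbol probe set gave -0.14 ± 0.05 (limma adjusted p = 0.0657 over all probe sets). For Eif5a, Eif2s2 and Eif3m, as for other genes with several probe sets, which set also reads a near-identical copy was not tested. The relative Eif5a2 gave -0.12 ± 0.07 and did not pass the test. Eif4a3l1, a copy of Eif4a3, read 4.64, 4.64, 4.53, 4.33 and 4.70 in PGC-1alpha-mTg, against 4.61, 4.42, 4.79, 4.67 and 4.63 in WT, with overlap and no call (-0.06 ± 0.10).

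**Figure D4:**
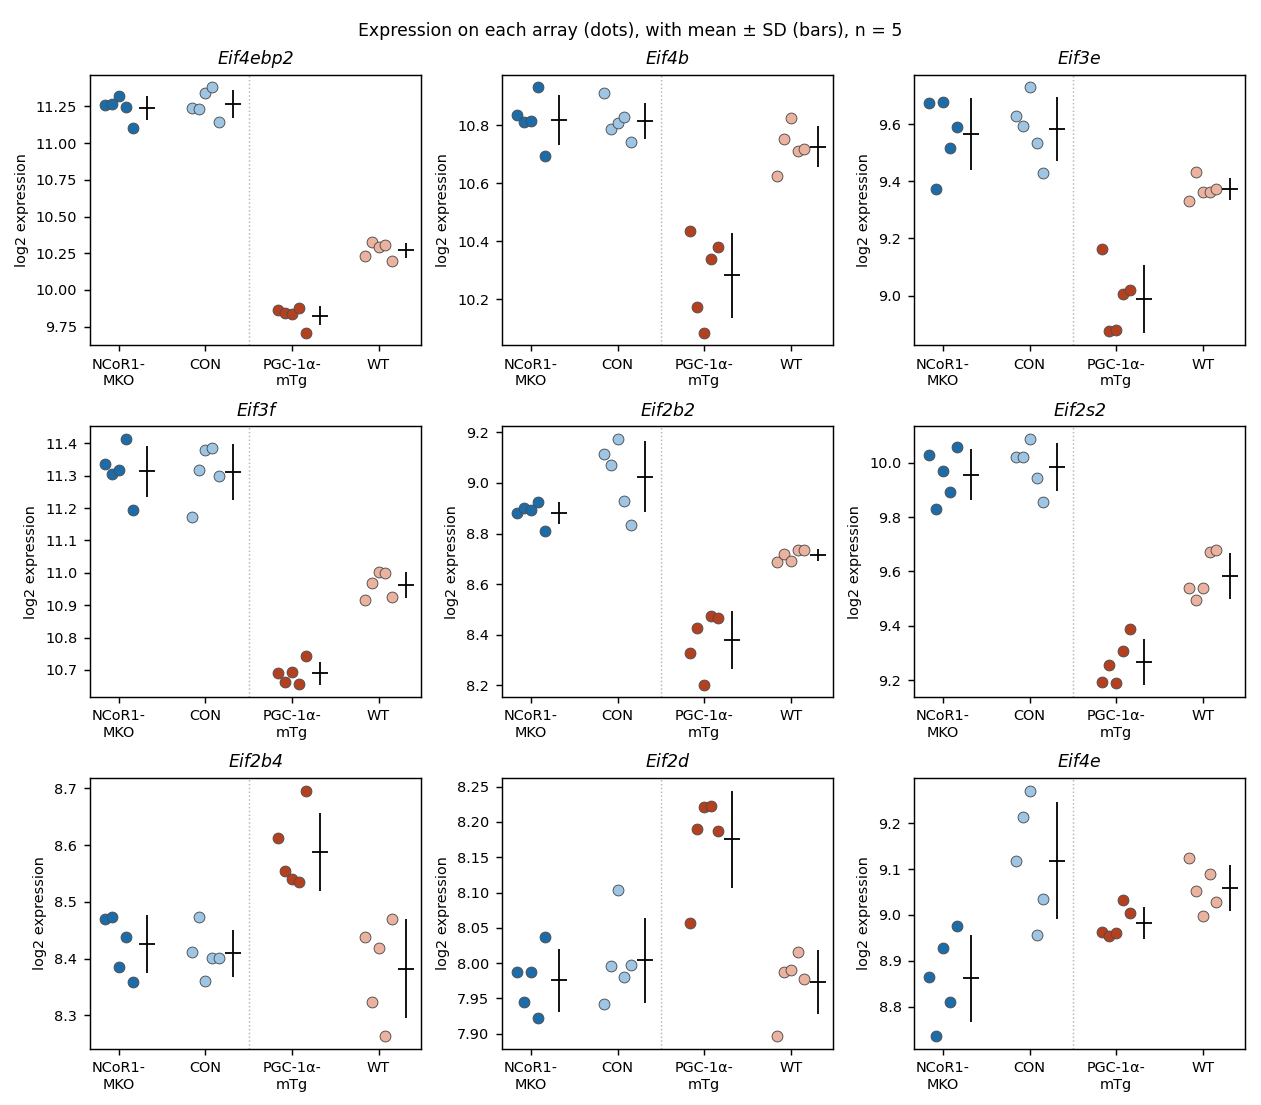
Log2 expression of initiation factor genes on each array (dots) with the group mean ± SD (bars), n = 5. In Eif4ebp2, Eif4b and Eif3e every PGC-1alpha-mTg array lies below every WT array, whereas in Eif4e the NCoR1-MKO and CON arrays overlap at their edges.

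In NCoR1-MKO muscle few of these genes passed the test. Of the 48, 1 fell, 0 rose and 47 did not pass the test, where 1.32% of all genes fell and 1.31% rose. The median change was 0.01, against 0.00 over all genes, and 31 of the 48 changes were positive. At an unadjusted p under 0.05 there were 3 higher and 2 lower genes. That is 5 of 48, where 11.8% of all genes passed at this level. Knockout arrays were all above the CON arrays on 2 of the 48 genes and all below on 0, against 2.21% and 1.96% of all genes.

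The gene that fell was Eif4e. It read 8.87, 8.74, 8.93, 8.81 and 8.98 in NCoR1-MKO, against 9.12, 9.21, 9.27, 8.96 and 9.03 in CON. Knockout array 5 lay just above CON array 4, so the groups overlapped slightly. The change was -0.26 ± 0.06, or 1.19-fold lower (limma adjusted p = 0.0101), and it was called with any 1 array left out (adjusted p at most 0.0383). It rests on 1 of 3 single-symbol probe sets of Eif4e, however. The other 2 gave -0.17 ± 0.08 and 0.01 ± 0.07, and the mean of the 3 did not pass the test (-0.14, limma adjusted p = 0.114). Which of these probe sets also reads a near-identical copy of the gene was not tested. The call was lost as well when only the 10 arrays of this comparison were fitted.

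Eif2ak2 was higher on every NCoR1-MKO array, with 6.29, 6.17, 6.04, 6.07 and 6.21, against 5.97, 5.91, 5.98, 5.93 and 5.93 in CON. Its change of 0.21 ± 0.06 missed the threshold (limma adjusted p = 0.0571). It passed in 8 alternatives: 3 of 20 with single arrays left out and 5 of 11 others. Among them were leaving out the dimmest 40% of genes (limma adjusted p = 0.0364) and NCoR1-MKO array 3 (limma adjusted p = 0.0443). Some left out only WT or PGC-1alpha-mTg arrays, so the change stayed at 0.21 and only the shared spread differed. With only the 10 arrays of this comparison fitted, 0 of the 48 genes rose. Eif3a was the other gene without overlap, at 0.14 ± 0.04 (limma adjusted p = 0.115), and passed after quantile normalization of all arrays (0.15, limma adjusted p = 0.0156). Eif4ebp2 read 11.26, 11.27, 11.32, 11.25 and 11.11 in NCoR1-MKO, against 11.24, 11.23, 11.34, 11.38 and 11.14 in CON, overlapping throughout. Its change was -0.03 ± 0.05, with a 95% interval of -0.13 to 0.08, which leaves out the change seen in PGC-1alpha-mTg. Eif4b likewise gave 0.00 ± 0.06, with a 95% interval of -0.12 to 0.13. The 11 eIF3 subunits had a median of 0.02 with 0 called, and array means of -0.03 to 0.06 in NCoR1-MKO and -0.02 to 0.06 in CON. Of 7 endothelial markers 1 rose in the knockout (Cdh5), where 1.31% of all genes rose. All 7 changes were positive, with a median of 0.20, where 50.7% of all changes were positive. Their array means, relative to the CON mean, were 0.06 to 0.50 in NCoR1-MKO and -0.13 to 0.13 in CON.

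The test of the difference between the effects asked which genes changed differently in the models, as the PGC-1alpha-mTg effect minus the NCoR1-MKO effect, each against its own controls. This difference passed the test as negative in 10 of the 48 genes and as positive in 2, against 8.5% and 6.66% of all genes. By sign alone, 42 of the 48 differences were negative. The median difference of the 48 was -0.10, against 0.01 over all genes. The negative ones that passed were led by Eif4b with -0.45 ± 0.09, Eif4ebp2 with -0.42 ± 0.07, Eif3e with -0.37 ± 0.09 and Eif3a with -0.37 ± 0.06 (limma adjusted p = 7.28e-04, 2.19e-04, 0.00705 and 2.03e-04). The others were Eif3f, Eif3h, Eif3l, Eif3c, Eif2s2 and Eif2b3, so that 6 of the 10 were eIF3 subunits. The positive ones that passed were Eif2d with 0.23 ± 0.06 and Eif1ad with 0.22 ± 0.06 (limma adjusted p = 0.00991 and 0.0109). Eif1ad read 9.26, 9.29, 9.25, 9.32 and 9.30 in NCoR1-MKO, against 9.42, 9.42, 9.44, 9.25 and 9.31 in CON, lower on average but with overlap. For Eif4e the difference was 0.18 ± 0.08 and did not pass (limma adjusted p = 0.137), so its fall was not shown to differ between the models. For Eif2ak2 the difference was -0.03 ± 0.08, with a 95% interval of -0.21 to 0.14. Without PGC-1alpha-mTg arrays 2 and 3, 6 negative differences passed the test, against 5.75% of all genes. Without arrays 1 and 5, an alternative also chosen after the data were seen, 16 passed, against 13.3% of all genes.

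Other genes of the translation pathway were set beside these, 57 measured genes in 5 lists. In PGC-1alpha-mTg 10 of the 57 rose and 11 fell, with a median of -0.03, where 11.9% of all genes rose and 16.1% fell. The mitochondrial initiation and elongation factors, which serve the separate mitochondrial ribosome, were higher: 7 of 9 rose and 0 fell, with a median of 0.45. They were led by the elongation factors Gfm1 with 0.91 ± 0.04 and Tufm with 0.80 ± 0.05, and the initiation factor Mtif2 rose by 0.64 ± 0.05 (limma adjusted p = 2.31e-10). The other initiation factor, Mtif3, gave 0.08 ± 0.05 and did not pass. In NCoR1-MKO 2 of these 9 rose, where 1.31% of all genes rose, and the median of the 9 was 0.13. The rises were Tufm with 0.21 ± 0.05 and Gfm1 with 0.16 ± 0.04 (limma adjusted p = 0.0217 and 0.0487). The number of rises was 0 to 3 when single arrays of any group were left out.

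Of 10 accessory initiation proteins 4 fell and 0 rose in PGC-1alpha-mTg, where 16.1% of all genes fell and 11.9% rose. Larp1, which binds messenger RNAs with a terminal oligopyrimidine tract and represses them when mTOR is off, fell by 0.47 on the log2 scale (limma adjusted p = 2.03e-08). The helicases Dhx29 and Ddx3x fell by 0.24 and 0.18, and Dhps, the enzyme of the first step of hypusine formation on eIF5A, by 0.14. Of 11 genes that signal to initiation, 2 rose and 2 fell, beside the same shares of all genes. Mknk1, a kinase of eIF4E, rose by 0.36 ± 0.06, and Paip2b, an inhibitor of poly(A)-binding protein, by 0.28 ± 0.04. Mknk2 gave -0.05 ± 0.04 and did not pass the test. Pabpc1, that poly(A)-binding protein, fell by 0.32, and its partner Paip1 by 0.18. Eif4ebp1, the 4E-binding protein outside the 48 genes, gave -0.00 ± 0.07 in PGC-1alpha-mTg. In NCoR1-MKO it fell by 0.26 (limma adjusted p = 0.0356), a call that was lost when CON array 1, 3, 4 or 5 or NCoR1-MKO array 1 or 2 was left out.

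Of 11 elongation and termination genes 3 fell and 0 rose in PGC-1alpha-mTg, where 16.1% of all genes fell and 11.9% rose. Eef2k, the kinase that inhibits elongation factor eEF2, had -0.55 ± 0.07 (limma adjusted p = 4.86e-06), while Eef2 itself fell by 0.13 and the termination factor Gspt1 by 0.13. The number of falls was 1 to 3 with single arrays left out, and smaller than 3 without WT 3, PGC-1alpha-mTg 2 or PGC-1alpha-mTg 3. Another list held 16 genes of eIF2alpha dephosphorylation, GCN2 partners and the ATF4 response, which follows eIF2alpha phosphorylation. Of these 1 rose and 2 fell, beside the same shares of all genes. Impact, an inhibitor of GCN2, fell by 0.47, and Ppp1r15a, the inducible subunit of the eIF2alpha phosphatase, by 0.34 on the log2 scale. Shmt2, a mitochondrial serine enzyme, rose by 0.33. Atf4 gave -0.03 ± 0.04 and did not pass the test. The median of this list was -0.01.

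**Figure D5:**
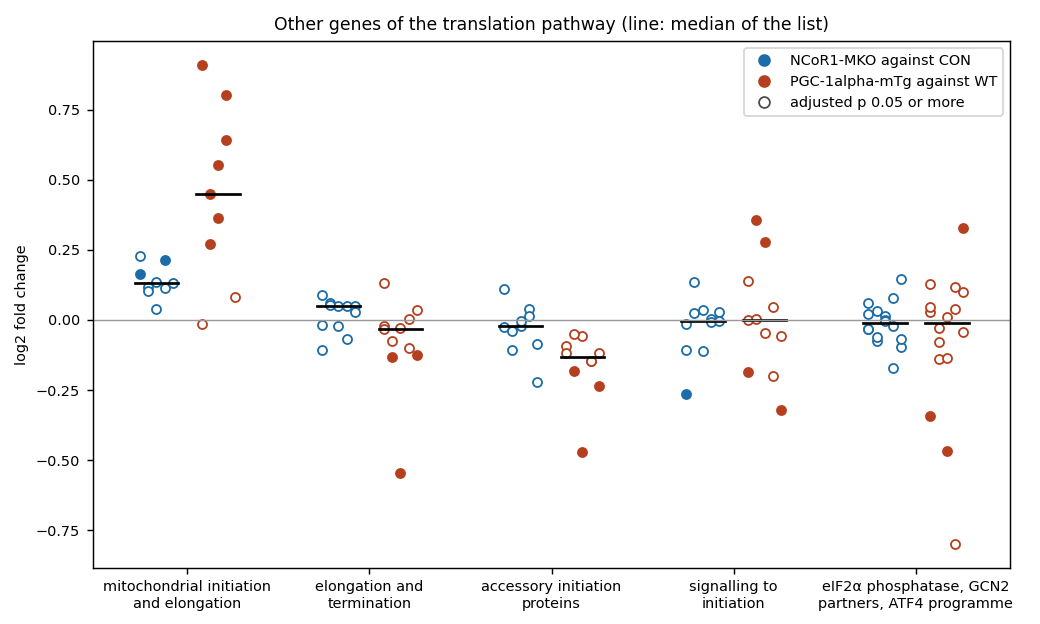
Log2 fold changes of the other 57 genes of the translation pathway, by list, in PGC-1alpha-mTg against WT and NCoR1-MKO against CON, with a line at each list's median and filled points for an adjusted p under 0.05. The mitochondrial factors have medians of 0.45 in PGC-1alpha-mTg and 0.13 in NCoR1-MKO.

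Promoter windows of 300 bases, from 250 before to 50 after the start, were found for 39 of the 48 genes in the RefSeq table, and 4 motifs were searched on both strands, except the last, which was read at the start base. The ETS motif CCGGAAG was found in 15 of the 39 (38.5%), against 9.93% of all 27025 genes with a window. In this paragraph all genes are these 27025, which were not limited to genes on the arrays or expressed in muscle. A set of genes with expression like that of the members was not compared. Of the genes that fell in PGC-1alpha-mTg, 17 had a window, and 8 of these held the motif. It was also in 7 of the 22 other members with a window. Among those that fell it was in Eif4ebp2, Eif2b2, Eif3c, Eif3d, Eif3l and Eif3m, and among those that rose in Eif2b4, Eif1ad and Eif4e2. The E-box CACGTG was in 9 of the 39 (23.1%), against 8.09% of all genes. The estrogen-related receptor element TNAAGGTCA, where N is any base, was in 0 of the 39, against 1.43% of all genes. A start at a C followed by 4 pyrimidines, the form of terminal oligopyrimidine messenger RNAs, was read in Eif3f and Eif2s3x, 2 of the 39 (5.13%), against 3.01% of all genes. The oligopyrimidine form was read only at the annotated start base, so no match there does not show that a messenger RNA lacks it. A match describes the letters only, and no binding was measured.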

How the data were processed

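Gene expression in 20 gastrocnemius samples was deposited as log2 values made by RMA, with Partek also named, per the submitters' processing notes; versions, genome build and probe set background are not given in the sources used here. Arrays have no depth, so 5 arrays per group limit the precision. Gene symbols came from the platform's annotation, which gave, of 35556 probe sets, 21789 with 1 symbol, 1621 with several and 12146 with none. All 48 members were found in the RefSeq table of GRCm38.p6 with unchanged symbols. No dim gene was removed. The 4 group means were fitted to all 20 arrays by lmFit, contrasts.fit and eBayes (limma 3.58.1, R 4.3.3; two-sided tests), with Benjamini-Hochberg adjustment over 19938 genes and calls at an adjusted p under 0.05. The fit was tested on simulated data. Of 50 genes changed by 0.2 on the log2 scale, 42% were recovered in the NCoR1-MKO comparison and 38% in the PGC-1alpha-mTg comparison. Of 50 changed by 0.5, 96% and 94% were recovered. The simulated NCoR1-MKO and PGC-1alpha-mTg comparisons gave 182 and 175 calls, of which 13 and 9 were false. The real PGC-1alpha-mTg comparison gave 2371 rises and 3204 falls, and the adjusted p depends on the number of changed genes. The recovery in that comparison can therefore not be read from the simulation. A change near 0.2 that did not pass the test may still have been missed. No array pair was identical (0 pairs).

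The members, lists and alternatives were chosen with earlier results of these data known. Genes with values for every array are the called member of NCoR1-MKO, the rises and largest falls of PGC-1alpha-mTg, the leading differences and members of roles with no other example. Alternatives were quantile normalization over all arrays, median centring, leaving out the dimmest 40% of genes, averaging the probe sets of each gene, testing every single-symbol probe set, fitting the 10 arrays of a comparison alone, robust eBayes with a trend, array weights, a replicate block and leaving out each array.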

Additional observations from a re-analysis of the deposited data

Results flagged for a closer look

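Over 100 sets of 5 arrays tested for a sample far from the others, 5 were found, and chance gives about 1 in 20. Eif2d read 8.06 on PGC-1alpha-mTg array 1, against 8.19 to 8.22 on the other arrays of the group, and Eif4ebp2 read 9.71 on PGC-1alpha-mTg array 5, against 9.84 to 9.88. The mean of the eIF3 subunits was 0.055 on CON array 3 and -0.021 to -0.005 on the other CON arrays. The mean of the cap-binding and scaffold genes was -0.0608 on NCoR1-MKO array 5 and -0.010 to 0.008 on the others, and the mean of the eIF4E-binding proteins was -0.0733 on WT array 5 and 0.012 to 0.028 on the others.

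Of 67 probe sets that name a member, some that the comparisons did not use also gave falls in PGC-1alpha-mTg, but most of the unused ones did not. Among all genes tested, 16.1% fell, a share of 19938 genes adjusted together, whereas these probe sets were adjusted over all 35556 probe sets. The probe sets 10458680 and 10475405, which name both Eif3j1 and Eif3j2, gave 0.08 ± 0.05 and 0.07 ± 0.05 and did not pass the test. Those that fell were the following. The second probe set of Eif2s2, 10488806, gave -0.45 ± 0.07 (limma adjusted p = 3.86e-05 over all probe sets), a larger change than the one used. The probe sets 10539177 and 10541067, which name both Eif4a3l1 and Eif4a3, gave -0.17 ± 0.05 and -0.15 ± 0.05 (limma adjusted p = 0.023 and 0.0469).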

How the results depend on the processing

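No call of a member changed direction under any alternative run. In PGC-1alpha-mTg 13 of the 27 called members were called under every alternative: Eif2b2, Eif2b3, Eif2b4, Eif2d, Eif2s2, Eif3a, Eif3e, Eif3f, Eif3h, Eif4b, Eif4ebp2, Eif4g2 and Eif5a. With single arrays left out 18 of the 27 were kept, and those lost under at least 1 were Eif2a, Eif2ak2, Eif2b5, Eif3b, Eif3m, Eif4e2, Eif4enif1, Eif4g3 and Eif6. Of the 12 differences 8 were kept under every alternative and 12 with single arrays left out. Over single arrays left out, falls in PGC-1alpha-mTg numbered 16 to 23 and rises 3 to 5, the NCoR1-MKO comparison gave 1 fall in each case and 0 to 1 rises, and 10 to 12 negative and 2 to 3 positive differences passed the test.

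The rises in PGC-1alpha-mTg numbered 2 with arrays centred on their medians, beside 23 falls, and 3 both with only the 10 arrays of the comparison and without PGC-1alpha-mTg arrays 1 and 5. The falls numbered 11 without arrays 2 and 3. Negative differences that passed the test numbered 6 without arrays 2 and 3 and 16 without arrays 1 and 5, and positive ones that passed numbered 5 after quantile normalization. In NCoR1-MKO 1 gene rose under several alternatives: Eif3a after quantile normalization, and Eif2ak2 with the dimmest 40% of genes left out, with array weights, with the replicate block and without either pair of PGC-1alpha-mTg arrays, and 0 fell with probe sets averaged per gene or with only the 10 arrays. The causes were not tested.

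Replicate numbers were not taken to pair the samples. The deviations of same-numbered arrays correlated at -0.132 to 0.040 in NCoR1-MKO and CON and at -0.232 to 0.196 in PGC-1alpha-mTg and WT. For PGC-1alpha-mTg arrays 1 and 4 the same-numbered WT array correlated best (0.196 and 0.107, against at most 0.058 and 0.074 with the others), but not for arrays 2, 3 and 5. Such correlations cannot exclude a pairing. With the replicate block, 4 members rose and 19 fell in PGC-1alpha-mTg, and 2 positive and 9 negative differences passed the test. The 5 arrays per group and the unstated background of the probe sets limit all of these counts.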
